A study of Mus musculus with 18 samples.

Results

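Exonic circular RNAs (ecircRNAs) listed in the nucleus but not in the cytoplasm were examined in NIH/3T3, a line of mouse embryonic fibroblasts. A circRNA was taken when it had reads in at least 1 of the 4 nuclear lists and in none of the 4 cytoplasmic lists, and when both of its ends lay on annotated exon edges. These criteria left 205 ecircRNAs of 1166 circRNAs listed in the nucleus and of 16171 circRNAs in all. Of the 677 nuclear circRNAs with both ends on exon edges, the other 472 were also in a cytoplasmic list and are called the shared ecircRNAs here. The nuclear and cytoplasmic read counts chose the 205, so their presence in the nucleus and absence from the cytoplasmic lists are not results.

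RNA from wild-type (WT) cells and from XPO4 knockout (KO) cells was treated with RNase R, which digests linear RNA, and sequenced, with 2 libraries of nuclear, 2 of cytoplasmic and 2 of total RNA for each genotype. The KO is a line made by genome editing of NIH/3T3 cells, so that a genotype effect cannot be told apart from a property of that line. mRNA-seq had 3 libraries labelled WT and 3 labelled KO. No label says whether the replicates came from separate cultures, so all p-values measure the spread between libraries, which may be technical. The nuclear lists held few junction reads, 2189 to 4383 per library, against 50341 to 58165 for total RNA and 50629 to 81941 for the cytoplasm. These totals count listed circRNAs only and are not the sequencing depth of the libraries. All 10 fibroblast marker genes were above 10 CPM (counts scaled to library size) on average in mRNA-seq, with a summed level of 23500 to 25100 CPM in the libraries labelled WT and 21700 to 24300 CPM in those labelled KO. The 5 epithelial, 6 blood and 4 endothelial markers each summed to at most 5.58 CPM in any library, and 2 epithelial and 2 blood markers were at 0 in all of them. Xpo4 had 657, 614 and 685 mRNA-seq reads in the libraries labelled WT and 712, 504 and 687 in those labelled KO, a difference that did not pass the test (edgeR adjusted p = 0.193, log2 difference 0.18 ± 0.11 SE). This count therefore does not check the labels. Each mRNA-seq count column is headed with the opposite genotype to its sample title; the titles were followed, and the direction of every mRNA-seq difference rests on those titles.

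A circRNA forms when the end of an exon is spliced back to the start of the same or an earlier exon, in place of the next exon downstream. The joined ends form a backsplice junction, and reads across it count the circle apart from the linear transcript. ecircRNAs are made in the nucleus and are found mostly in the cytoplasm of many cells, and XPO4 (exportin 4) is a nuclear transport receptor that the study examined for their export.

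The junction sequences of 10 of the ecircRNAs are shown first, because each read counted here had to cross one of them. Each was read from GRCm38 and gives the last 25 bases of the final exon in lower case, then the first 25 bases of the first exon in capitals, 5′ to 3′ on the strand of the host gene. Each circle lies wholly in coding exons.
circBrca2: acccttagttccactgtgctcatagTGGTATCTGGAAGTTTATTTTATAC
circSh3rf3: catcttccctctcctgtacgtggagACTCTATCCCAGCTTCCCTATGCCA
circArhgap32: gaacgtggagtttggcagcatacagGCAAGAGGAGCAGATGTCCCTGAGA
circPtchd4: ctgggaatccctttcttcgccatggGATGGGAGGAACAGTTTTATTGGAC
circBlvrb: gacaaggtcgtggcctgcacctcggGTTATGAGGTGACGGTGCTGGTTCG
circNfx1: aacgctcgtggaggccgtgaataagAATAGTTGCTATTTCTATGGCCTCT
circTlk1: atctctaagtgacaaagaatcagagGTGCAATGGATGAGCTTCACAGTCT
circTulp4: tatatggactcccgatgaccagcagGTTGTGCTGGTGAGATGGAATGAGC
circAdgrl3: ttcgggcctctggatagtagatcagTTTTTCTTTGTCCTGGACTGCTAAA
circNek1: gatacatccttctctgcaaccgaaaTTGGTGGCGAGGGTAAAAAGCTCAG

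4 circles are shown whole as examples. circFn1 and circSnx27 each hold 1 exon, and the capitals mark the first and last 25 bases, which meet at the junction. circBrca2 and circArhgap32 each hold 2 exons, with the first in lower case and the second in capitals, so that the junction joins the last capital to the first base of the line.
circFn1: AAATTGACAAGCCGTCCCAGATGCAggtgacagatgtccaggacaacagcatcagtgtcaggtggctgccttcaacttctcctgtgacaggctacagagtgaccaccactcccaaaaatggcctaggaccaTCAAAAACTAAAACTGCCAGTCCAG
circSnx27: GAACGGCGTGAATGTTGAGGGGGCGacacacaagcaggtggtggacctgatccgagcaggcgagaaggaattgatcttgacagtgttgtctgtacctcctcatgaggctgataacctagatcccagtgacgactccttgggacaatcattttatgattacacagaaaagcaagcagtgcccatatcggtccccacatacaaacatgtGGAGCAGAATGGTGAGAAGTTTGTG
circBrca2: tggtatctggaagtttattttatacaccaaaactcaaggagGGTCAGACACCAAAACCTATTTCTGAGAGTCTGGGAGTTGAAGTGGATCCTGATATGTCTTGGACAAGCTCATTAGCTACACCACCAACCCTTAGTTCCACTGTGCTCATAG
circArhgap32: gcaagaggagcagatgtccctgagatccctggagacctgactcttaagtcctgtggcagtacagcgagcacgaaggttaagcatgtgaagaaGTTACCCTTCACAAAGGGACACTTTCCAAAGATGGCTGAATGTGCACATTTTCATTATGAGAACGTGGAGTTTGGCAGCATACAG

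On GRCm38 circBrca2 spans chr5:150532055-150532402 on the plus strand and holds exons 6 and 7 of Brca2 (ENSMUSG00000041147.10), which encodes a homologous recombination protein. circArhgap32 spans chr9:32151922-32153124 on the plus strand (exons 3 and 4 of Arhgap32). circFn1 spans chr1:71605885-71606040 on the minus strand and is exon 31 of Fn1, which encodes fibronectin. circSnx27 spans chr3:94561769-94562000 on the minus strand and is exon 2 of Snx27, a sorting nexin of the endosome. Exon numbers count from the start of the GENCODE transcript that holds both ends of the circle.

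The 205 ecircRNAs were detected at few reads each. Summed over the 4 nuclear libraries they held between 3 and 25 reads, with a median of 10, against a median of 11 and a highest value of 110 for the shared ecircRNAs. The median ecircRNA had 1 read in each WT nuclear library, and 3 and 4 reads in the KO libraries. Reads were present in all 4 nuclear libraries for 132 of the 205 and in 3 for 64, and 9 had reads in 2. The lists carry a minimum that the sources used here do not state: no circRNA of any fraction was listed in only 1 library, and the lowest sum was 3 reads for nuclear, 5 for cytoplasmic and 4 for total RNA. A circRNA outside the cytoplasmic lists may therefore have had a few reads there. At the edge of the selection, circRnf2, circUbxn1 and circCdk16 had 3 nuclear reads each. Just outside it, the shared ecircRNAs with fewest cytoplasmic reads had 7, among them circTrps1 with 20 nuclear reads and circAdamts7 with 12.

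In the nucleus the 205 ecircRNAs together had 326 and 342 junction reads in the WT libraries and 761 and 744 in the KO libraries. The genotypes did not overlap, and the KO mean was 2.25 times the WT mean (334.0 ± 11.3 SD in WT and 752.5 ± 12.0 SD in KO, n = 2 each). The exact two-sided permutation test gave p = 0.333, the smallest that 2 libraries against 2 allow, so no such comparison here can pass 0.05. Nuclear libraries of KO cells also held more reads of shared ecircRNAs (1026 and 1123 in WT, 1918 and 2069 in KO) without overlap between genotypes, while reads of circRNAs off exon edges overlapped (837 and 1170 in WT, 1064 and 1570 in KO). As a share of the exonic junction reads, the 205 took 24.1% and 23.3% in WT and 28.4% and 26.4% in KO, a difference of 3.7 percentage points (exact permutation p = 0.333, n = 2). The nuclear reads summed here also chose the 205, so the KO excess is not independent of that choice. Among the 205, 8 had no nuclear reads in WT and 1 had none in KO. How far library depth, this choice and nuclear content each contribute to the higher KO reads cannot be told apart from these counts.

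**Figure D1:**
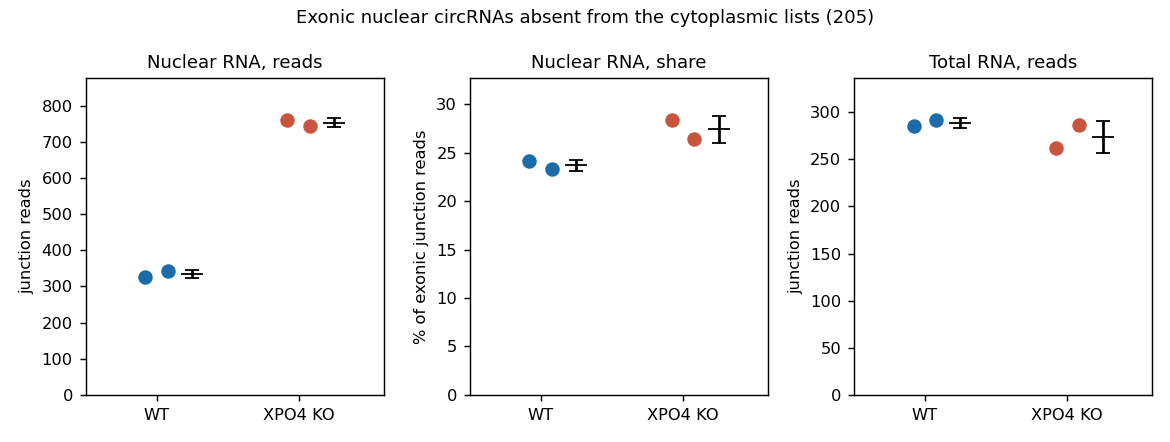
Junction reads of the 205 ecircRNAs in each nuclear library (left), their share of the exonic junction reads of that library in percent (middle) and their junction reads in each total RNA library (right). Points are libraries, and the bar beside each pair is the mean with its SD (n = 2); the KO libraries lie above the WT libraries in both nuclear panels, while in total RNA 286 reads in 1 KO library fall between the WT values of 285 and 292.

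Single ecircRNAs followed the sums in direction. Summed over both libraries, 165 of the 205 had more nuclear reads in KO, 31 had more in WT and 9 had equal reads. Of the 472 shared ecircRNAs, 365 had more in KO, 96 had more in WT and 11 had equal reads. Both KO libraries were above both WT libraries for 126 of the 205 (61.5%), where 55.8% of the 677 exonic nuclear circRNAs were, and both were below for 16 (7.8%), where 8.86% of the 677 were. When reads were divided by the exonic reads of their library, 89 (43.4%) were higher in both KO libraries, beside 38.3% of the 677, and 36 (17.6%) were lower in both, beside 20.5%. These shares lay near the background of all exonic nuclear circRNAs.

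Differential testing of the nuclear counts (edgeR quasi-likelihood test, trimmed mean of M values (TMM) scaling, Benjamini-Hochberg adjustment) had 128 of the 205 ecircRNAs with at least 10 reads summed. 10 of them passed an adjusted p of 0.05, 2 higher and 8 lower in KO. Among all 651 nuclear circRNAs tested, 1.69% were called higher and 8.45% lower, and the 2 and 8 of the 128 lay near these shares. The fitted log2 difference had a median of 0.60 over the 128 and of 0.44 over the 651, so the calls ran opposite to the medians. Without any scaling the medians were 1.51 and 1.34, a shift of the whole table by the library totals, and no ecircRNA passed. DESeq2 called none of the 128 either, with 10 at an unadjusted p under 0.05 against 25 in edgeR. With scaling factors from exonic circRNAs alone, 7 passed and all were lower in KO. Leaving out 1 library left 1 library in a group, and 23 to 86 of the ecircRNAs still reached 10 reads. Their median log2 difference was -0.539 without KO library 1 and 0.009 without KO library 2, beside -0.004 and -0.202 over all circRNAs tested. Without WT library 1 and WT library 2 it was 0.983 and 0.782, beside 0.178 and 0.227.

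The 2 ecircRNAs called higher in KO nuclei were circPtchd4 and circNfx1. circPtchd4 (chr17:42377160-42377640) is a single exon of Ptchd4, which encodes a patched domain protein. It had 0 and 1 nuclear reads in WT against 8 and 13 in KO, and no reads were listed in total RNA. The KO libraries lay above the WT libraries. The fitted log2 difference was 3.23 ± 1.01 SE (edgeR adjusted p = 0.0269), and the unscaled ratio of reads was 21.0 with a counting interval of 3.38 to 868. circNfx1 (chr4:41017972-41022326, exons 18 to 21) comes from Nfx1, a zinc finger transcription factor gene. It had no nuclear reads in either WT library and 7 and 5 in KO (edgeR adjusted p = 0.0269). Against a floor of 3 reads over the WT group and after scaling, it was at least 2.21-fold higher in KO. Both circles reached the 10 reads needed for the test only through the KO libraries, where they are high, and with scaling factors from exonic circRNAs alone neither passed (edgeR adjusted p = 0.0568 and 0.0525). Neither passed without a WT library, and circPtchd4 then differed by 2.18 (without WT library 1) or 6.08 (without WT library 2) on the log2 scale.

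The ecircRNAs that fell in KO nuclei were circBlvrb, circSh3rf3, circArhgap32, circZfp438, circCcn5, circVps33a, circMllt10 and circTlk1. circBlvrb, from the gene of biliverdin reductase B, had 8 and 6 reads in WT against 2 and 1 in KO (log2 difference -3.04 ± 0.76 SE, edgeR adjusted p = 0.00406). circSh3rf3, from the gene of a scaffold protein with SH3 domains, had 9 and 9 reads in WT against 2 and 3 in KO (log2 difference -2.72 ± 0.70 SE, edgeR adjusted p = 0.00543). circArhgap32 had 9 and 8 reads in WT against 1 and 4 in KO (log2 difference -2.64 ± 0.69 SE, edgeR adjusted p = 0.0067). In each of the 3, neither KO library reached either WT library. No call of the 3 held in the edgeR fit without a KO library: the log2 difference was -1.74 for circBlvrb without KO library 2, and -1.88 for circSh3rf3 and -1.40 for circArhgap32 without KO library 1 (edgeR adjusted p = 0.234, 0.194 and 0.339).

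circCcn5, from a gene of a secreted matricellular protein, had 4 and 10 reads in WT against 1 and 3 in KO (edgeR adjusted p = 0.00799). circZfp438, a single coding exon of a zinc finger gene, had 3 and 6 reads in WT against 0 and 1 in KO (edgeR adjusted p = 0.00769). circVps33a, from a gene of endosome tethering, had 8 and 3 reads in WT against 2 and 1 in KO (edgeR adjusted p = 0.0168). In each the KO libraries were again below the WT libraries. circMllt10, from a chromatin reader gene, had 3 and 5 reads in WT against 0 and 2 in KO, and circTlk1, from a kinase gene of chromatin assembly, had 4 and 4 in WT against 2 and 0 in KO (both edgeR adjusted p = 0.0359). The counts behind these calls are small, and the unscaled WT to KO ratio of circMllt10 and circTlk1 was 4.0 with a counting interval of 0.798 to 38.7. Every circle called lower reached the 10 reads needed for the test only through the WT libraries, where it is high. circZfp438, circMllt10 and circTlk1 had exactly 10 reads summed. None of the 5 passed without 1 of the KO libraries: the log2 difference was then -1.51 for circCcn5, -2.35 for circZfp438 and -1.28 for circMllt10 without KO library 1, and -1.40 for circVps33a and -0.94 for circTlk1 without KO library 2, where the values with every library ran from -2.66 to -3.74.

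Most of the ecircRNAs with the highest nuclear counts did not pass the test. circBrca2, with the most reads of the 205, had 7 and 5 in WT against 8 and 5 in KO, and the genotypes overlapped (edgeR adjusted p = 0.441). circZfp827 had 8 and 5 reads in WT against 5 and 4 in KO, and circRab10os, a circle of a noncoding transcript, had 6 and 4 in WT against 5 and 5 in KO. circTasp1, from the taspase gene, had 3 and 10 reads in WT against 2 and 5 in KO (edgeR adjusted p = 0.0654). The 2 genotypes overlapped for these 3 circles.

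circSnx27 had 0 and 2 reads in WT against 12 and 7 in KO (edgeR adjusted p = 0.0889). circTulp4 had 1 and 1 reads in WT against 7 and 8 in KO. circNcor1, from a nuclear receptor corepressor gene, had 1 and 2 in WT against 11 and 4 in KO. KO exceeded WT in every library for these 3, and none passed the test.

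circPtpn11, from the gene of the phosphatase SHP2, had 2 and 1 reads in WT against 5 and 9 in KO. circTgfb3, from a transforming growth factor beta gene, had 3 and 2 in WT against 9 and 4 in KO. circDhx9, from the gene of an RNA helicase that acts on paired repeats, had 2 and 2 in WT against 9 and 5 in KO. In each the KO libraries lay above the WT libraries, and the edgeR adjusted p was 0.327, 0.766 and 0.517 in that order. Among the ecircRNAs with 16 nuclear reads and none listed in total RNA were circTraf7, with 2 and 1 reads in WT against 8 and 5 in KO, and circPrkg1, with 3 and 2 in WT against 2 and 9 in KO; circAmbra1 tied with them at 1 and 2 in WT against 6 and 7 in KO.

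**Figure D2:**
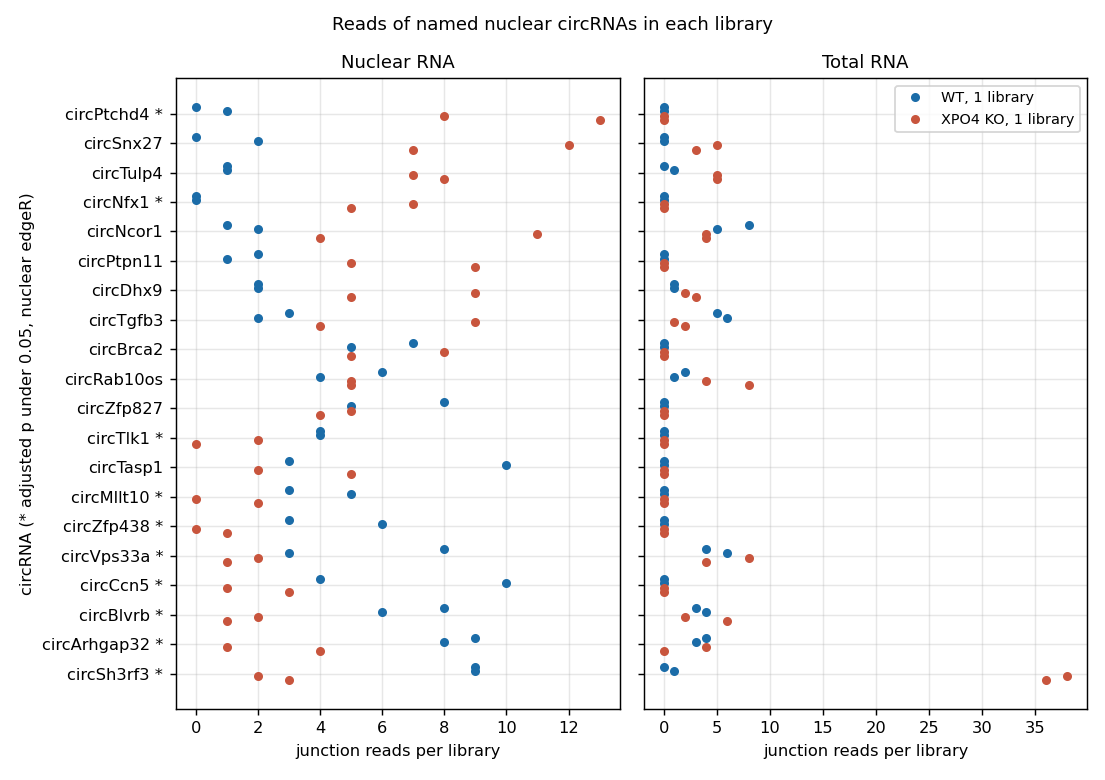
Junction reads per library of the 15 ecircRNAs with most nuclear reads and of the others that passed the nuclear test, in nuclear RNA (left) and total RNA (right, on its own scale). Each point is 1 library, WT in blue and KO in red, and rows are ordered by KO minus WT nuclear reads. The 8 ecircRNAs called lower in KO hold at most 4 reads in any KO nuclear library, and circSh3rf3 stands at 38 and 36 in KO total RNA.

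Total RNA listed 68 of the 205 ecircRNAs (33.2%), against 425 of the 472 shared ecircRNAs (90.0%). These 68 had 7 to 75 total RNA reads summed over 4 libraries, with a median of 14, while the 425 shared ones had a median of 46. Total RNA includes cytoplasmic RNA, and the cytoplasmic lists divided the 2 groups, so both contrasts are partly set by the selection. Reads were found in all 4 total RNA libraries for 51 of the 68, in 3 for 14 and in 2 for 3. Together the 205 had 285 and 292 total RNA reads in WT against 262 and 286 in KO, and the genotypes overlapped (exact permutation p = 0.667, n = 2). Their share of the junction reads was 0.493% and 0.53% in WT against 0.45% and 0.568% in KO (exact permutation p = 1.0, n = 2). The sign of this small difference turned without WT library 2, at 0.016 percentage points, and without KO library 1, at 0.0566. The 137 ecircRNAs in no total RNA list accounted for 203 and 213 nuclear reads in WT against 488 and 492 in KO, a KO to WT ratio of 2.36, and the 68 for 123 and 129 in WT against 273 and 252 in KO, a ratio of 2.08.

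No ecircRNA passed an adjusted p of 0.05 in total RNA by edgeR, nor did any of the 8903 circRNAs tested there (0% called). At an unadjusted p under 0.05, 17 of the 53 tested ecircRNAs differed, 8 higher and 9 lower in KO, where 19.9% of the 8903 were higher and 18.4% lower. This absence of calls depended on the settings: the lowest adjusted p was 0.058, and with the library sizes before the filter on low counts 280 of the 8903 circRNAs passed, 3 of the 205 among them, while plain library totals gave 11, a replicate block 11 and DESeq2 1 of the 53. The largest count difference was that of circSh3rf3, which had 0 and 1 total RNA reads in WT against 38 and 36 in KO. The genotypes did not overlap, and the ratio was 74.0 with a counting interval of 12.9 to 2960 (edgeR adjusted p = 0.058, DESeq2 adjusted p = 0.026). By reads it stood higher in KO total RNA and lower in KO nuclei.

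circAdgrl3, a single exon of a gene of an adhesion G protein-coupled receptor, had 9 and 10 total RNA reads in WT and none in either KO library, at least 6.15-fold lower in KO against a floor of 3 reads over the KO group. In the nucleus it had 1 and 1 reads in WT against 7 and 3 in KO. circNek1, from a kinase gene, had 8 and 4 total RNA reads in WT and none in KO, at least 3.88-fold lower, and 1 and 0 nuclear reads in WT against 4 and 3 in KO. For these 2 circles the KO libraries were below WT in total RNA and above WT in the nucleus.

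circArhgap21 (exons 3 to 7 of its host) had 5 and 8 total RNA reads in WT against 0 and 1 in KO, and 2 and 3 nuclear reads in WT against 0 and 1 in KO, lower in KO in both. circF730043M19Rik had 7 and 8 total RNA reads in WT against 1 and 1 in KO. circAdgrl3, circNek1, circArhgap21 and circF730043M19Rik each had an edgeR adjusted p of 0.058 in total RNA. Among the 68, both KO libraries were above both WT libraries for 17, beside 32.5% of the 10700 circRNAs listed in total RNA, and below for 26, beside 35.7%.

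**Figure D3:**
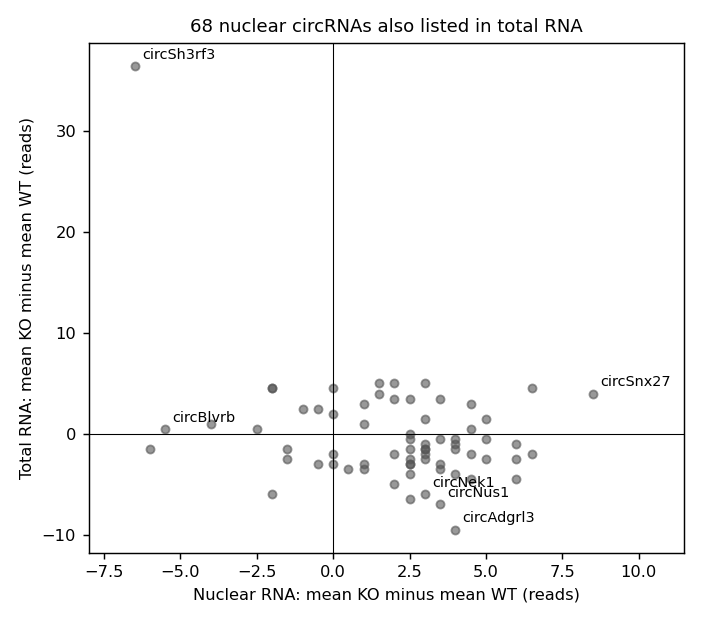
Mean KO minus mean WT junction reads in nuclear RNA (horizontal axis) and total RNA (vertical axis) for the 68 ecircRNAs also listed in total RNA. Each point is 1 ecircRNA; 35 lie right of 0 and below 0, 15 right and above, 8 left and above and 5 left and below, and circSh3rf3 stands alone at the top left.

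The nuclear and total RNA directions were set side by side for the 68. 35 (51.5%) had more reads in KO nuclei and fewer in KO total RNA, 15 had more in both, 5 had fewer in both and 8 had fewer in KO nuclei and more in KO total RNA. The remaining ones were equal between genotypes in 1 of the fractions. Of the 425 shared ecircRNAs listed in total RNA, 197 (46.4%) had more reads in KO nuclei and fewer in KO total RNA. With every library considered, the KO libraries lay on opposite sides of the WT libraries in the 2 fractions for 21 of the 68 (30.9%), for 59 of the 425 (13.9%) and for 16.2% of all 493 exonic nuclear circRNAs listed in total RNA. These counts are of reads without scaling, and the differences between the lists were not tested.

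The circles were compact. The median spliced length was 371 nt, against 405 nt for the shared ecircRNAs and 523 nt for ecircRNAs in no nuclear list, and the median genomic span was 3447 bp, against 5791 and 8322 bp. 18 of the 204 with a transcript holding both ends were single exons, 81 held 2 exons, 37 held 3 and 68 held 4 or more. Circles with 4 or more exons made up 33.3% of the 204, 29.7% of the shared ecircRNAs and 54.3% of those in no nuclear list. The median GC content was 50.2%, against 49.14% and 47.95%. The introns beside the circles had medians of 5062 bp upstream and 4386 bp downstream, near those of ecircRNAs in no nuclear list (6016 and 4384 bp) and below those of the shared ecircRNAs (13490 and 10400 bp). These are descriptions of the lists with no test, and the groups also differ in read counts.

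**Figure D4:**
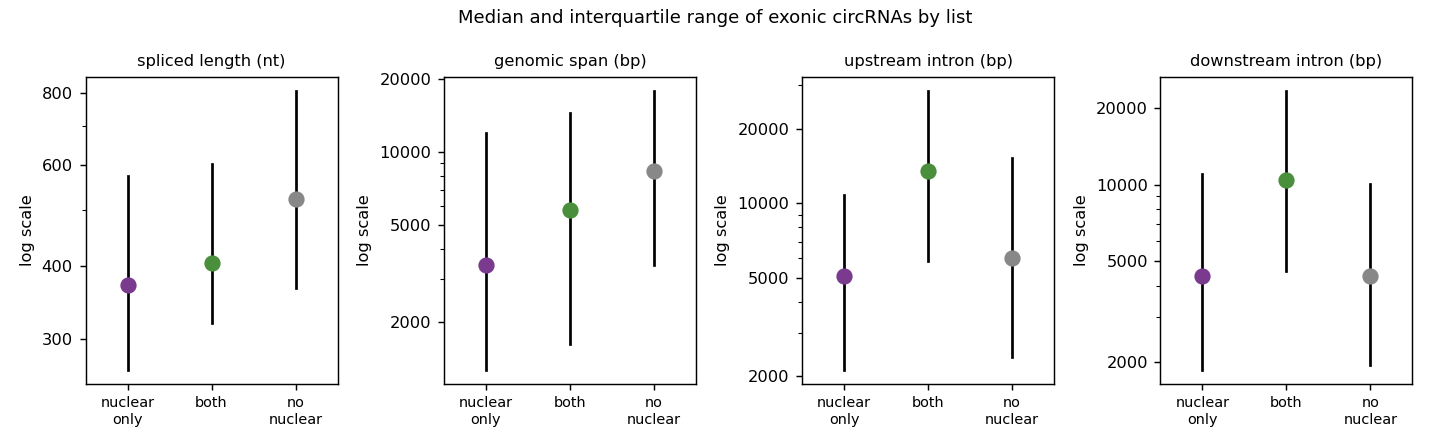
Spliced length in nt, genomic span, upstream intron and downstream intron in bp, each on a log axis, for the 205 ecircRNAs (nuclear only), the 472 shared ecircRNAs (both) and 15005 ecircRNAs in no nuclear list (no nuclear). Points are medians and lines the interquartile range; the upstream intron median is 5062 bp for the 205 and 13490 bp for the shared ecircRNAs.

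Most of the 204 (172, 84.3%) were made of coding exons alone, 21 also held untranslated sequence on the start codon side, 5 held other untranslated sequence and 2 held untranslated sequence only, and 4 came from transcripts without a coding sequence. The share made of coding exons alone was 76.0% among the shared ecircRNAs and 84.2% among those in no nuclear list. The first exon of the circle was exon 2 of its transcript in 48 (23.5%), against 39.8% of the shared ecircRNAs and 28.2% of those in no nuclear list. Within the 205, it was exon 2 in 25 of the 67 listed in total RNA that had a transcript and in 23 of the 137 in no total RNA list. 147 of the 205 (71.7%) came from genes with another circRNA in the cytoplasmic lists. 89 (43.4%) shared a splice edge with one, against 64.8% of the shared ecircRNAs and 52.4% of those in no nuclear list. circNop56 was the 1 circle for which no single transcript held both ends.

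The 205 came from 202 distinct genes, with 1 circle lying on both Srcap and Gm42715. Afap1, which encodes an actin filament associated protein, gave 3 circles. Its circle of exons 7 to 10 had 2 and 0 nuclear reads in WT against 4 and 5 in KO, and its circle of exons 10 to 12 had 2 and 1 in WT against 2 and 5 in KO, neither listed in total RNA. Its circle of exons 7 to 11 had 2 and 2 nuclear reads in WT against 1 and 3 in KO and was listed in total RNA at 3 and 3 reads in WT against 1 and 1 in KO. The circles of exons 7 to 10 and 7 to 11 share their first splice edge and most of their exons, so they are not independent. Arhgap21 and Zfp827 gave 2 circles each. circZmym4 had the most exons, 18 in 2618 nt, followed by circCol4a5 with 16 and circDock7 with 14. circCpeb3 had the longest span, 94700 bp, followed by circFut8 with 87999 bp and circCep112 with 72433 bp.

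The host genes were grouped by function with 9 gene lists, which do not hold every gene of a function. Each count below is of the hosts on a list. 14 ecircRNAs came from chromatin and transcription genes, among them circNcor1, circHdac9, circEp400, circBnc2 and circMllt10, with 54 nuclear reads in WT and 114 in KO. 9 came from cytoskeleton and adhesion genes, among them circArhgap32, circDock7, circFlnb and circPtk2 (43 reads in WT and 54 in KO). 7 came from the list of kinase and phosphatase genes, with circPtpn11, circPrkg1, circPik3c2a and circStk39 the most abundant. All 7 had more reads in KO (17 in WT and 64 in KO). Some circles of kinase-family genes outside that list had fewer, among them circTlk1, circRyk and circGak. 6 came from the list of membrane traffic genes, among them circSnx27, circNbea, circArfgap3 and circExoc6b. All 6 again had more reads in KO (11 in WT and 65 in KO), but circVps33a, from an endosome tethering gene outside that list, had fewer. Over all lists, 165 of the 205 had more reads in KO, beside 365 of the 472 shared ecircRNAs. In the test 1 of 13 chromatin circles (circMllt10) and 1 of 5 cytoskeleton circles (circArhgap32) passed, both lower in KO. Among all 651 nuclear circRNAs tested, 66 passed.

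5 came from the list of matrix and TGF-beta genes, namely circFn1, circAdamts6, circVcan, circSmad4 and circCol4a2 (15 nuclear reads in WT and 41 in KO). None of these 5 was listed in total RNA. circTgfb3 and circCol4a5, whose hosts were outside that list, were both listed in total RNA. 4 came from RNA binding and splicing genes, namely circDhx9, circHnrnpu, circTnpo3 and circSrrm1 (12 reads in WT and 34 in KO). DNA repair and cell cycle genes gave circBrca2 and circTop2a (14 and 20 reads), and ubiquitin genes gave circUsp12 and circUbe2h (8 and 9 reads). Of the 48 genes of circRNA biogenesis and export factors, 28 hosted a circRNA in any list and 1, Dhx9, hosted 1 of the 205, beside 202 of the 4780 circRNA host genes in all. Few of these circles had enough reads for the nuclear test: 4 matrix, 2 RNA binding (circDhx9 among them), 1 DNA repair and 1 ubiquitin circle. None passed, where 66 of all 651 nuclear circRNAs did.

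Host gene expression was compared in mRNA-seq, where 200 of the 202 host genes had enough reads. In libraries labelled KO 46 were higher (23.0%) and 64 lower (32.0%) at an edgeR adjusted p of 0.05, where 25.1% of the 14688 genes tested were higher and 23.6% lower. The median log2 difference was -0.05 over the hosts and 0.00 over all genes. Hosts of the shared ecircRNAs were higher in 24.9% and lower in 31.9%. The median level of the hosts was 9.65 FPKM (reads scaled to gene length and library size) in libraries labelled WT and 9.81 in those labelled KO.

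Ccn5 had 4505, 4279 and 4855 reads in libraries labelled WT and 1373, 1350 and 1222 in those labelled KO (log2 difference -1.57 ± 0.06 SE, edgeR adjusted p = 1.24e-10), and its circle was lower in KO nuclei too. Brinp3, a gene of neural proliferation control, rose with 14, 16 and 12 reads against 180, 173 and 163 (log2 difference 3.82 ± 0.20 SE, edgeR adjusted p = 4.35e-09), and its circle had 0 and 0 nuclear reads in WT against 2 and 4 in KO. Slc29a1, a nucleoside transporter gene, rose with 316, 281 and 355 reads against 730, 749 and 673 (log2 difference 1.40 ± 0.08 SE, edgeR adjusted p = 8.17e-09). Col4a2, which encodes a chain of basement membrane collagen, rose with 1597, 1641 and 1913 reads against 3762, 3169 and 3500 (log2 difference 1.24 ± 0.07 SE, edgeR adjusted p = 9.95e-09).

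For these 2 hosts the circles had 1 and 1 nuclear reads in WT against 3 and 2 in KO (circSlc29a1) and 0 and 0 in WT against 5 and 3 in KO (circCol4a2), above WT in each KO library. Nus1, a gene of dolichol synthesis, rose with 1474, 1582 and 1662 reads against 2665, 2542 and 2395 (log2 difference 0.91 ± 0.06 SE, edgeR adjusted p = 3.92e-08), while circNus1 had 1 and 2 nuclear reads in WT against 6 and 4 in KO, and 5 and 12 total RNA reads in WT against 2 and 1 in KO. Sh3rf3 had 576, 468 and 547 reads against 605, 496 and 666 (log2 difference 0.37 ± 0.11 SE, edgeR adjusted p = 0.014), a call lost without KO library 3, WT library 2 or WT library 3 (edgeR adjusted p = 0.0623, 0.0712 and 0.0513). Blvrb mRNA did not pass the test (log2 difference 0.00 ± 0.07 SE, edgeR adjusted p = 0.978). Ptchd4 had 154, 142 and 156 reads against 72, 46 and 64 (log2 difference -1.09 ± 0.17 SE, edgeR adjusted p = 1.82e-04), lower where its nuclear circle was higher. Adgrl3 had 77, 65 and 76 reads against 267, 170 and 265 (log2 difference 1.91 ± 0.18 SE, edgeR adjusted p = 2.12e-06), higher where its circle was at 0 reads in total RNA.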

How the data were processed

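circRNA-seq was analysed in nuclear, cytoplasmic and total RNA of WT and XPO4 KO NIH/3T3 cells (12 libraries) and mRNA-seq in 6 libraries, grouped by sample labels. The authors deposited, per circRNA and library, the count of junction reads that find_circ (version 1.2) gave on mm10 (GRCm38). TPM is the unit of their methods text, whereas the files held whole-number counts. For mRNA-seq the authors deposited read counts per gene from HISAT2 and featureCounts (version 2.0.0). Filters before deposition are not given in the sources used here. The sources give 2 RNase R doses, and the label protocol names blood as the RNA source, which was not followed.

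The ecircRNAs had reads in a nuclear list, none in a cytoplasmic list, and both ends on exon edges of the deposited annotation. The members and gene lists were chosen with earlier results of these data known. Exons came from GENCODE vM21 and sequences from the RefSeq GRCm38.p6 genome. Named ecircRNAs were the 15 with most nuclear reads, the 5 with smallest p in the nuclear and in the total RNA fit, the 8 with most nuclear reads in no total RNA list, those of hosts with 3 circles, the 3 with most exons and the 3 with longest span, up to 4 per gene list by nuclear reads, and the 5 hosts with smallest mRNA p. The other calls in the nucleus were named after their values were seen.

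The quasi-likelihood test of edgeR (version 4.0.16 in R 4.3.3, with TMM scaling) was applied to the counts at a Benjamini-Hochberg adjusted p of 0.05, with a minimum of 10 reads per circRNA over the 4 libraries tested and edgeR's own filter for mRNA. Library sizes were those after the filter, a choice made after both sets of calls had been seen; sizes before the filter were an alternative added after seeing the data. DESeq2 (version 1.42.0) was an alternative. Sums per library were compared with exact two-sided permutation tests. FPKM used the deposited gene length. Ratios carry 95% exact intervals that cover counting error only. Replicate libraries differed by more than sampling noise among circRNAs with 20 or more reads in the pair (9 and 12 circRNAs in the nucleus), while over the analysed ecircRNAs in the nucleus and total RNA, at few reads each, the chi-square per circRNA was 0.559 to 0.697, and over all circRNAs of these fractions 0.771 to 1.15; all libraries were kept as separate samples. Scripts used Python 3.11.15 with scipy 1.17.1, pysam 0.24.0 and matplotlib 3.10.9.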

Additional observations from a re-analysis of the deposited data

Results flagged for a closer look

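Every KO library lay on one side of both WT libraries in the nucleus and on the other side in total RNA for 21 of the 68 ecircRNAs listed in total RNA (30.9%), beside 16.2% of the 493 exonic nuclear circRNAs listed there. The 11 given here are those named for other reasons, most reads or smallest p among them. The difference between the fractions was not tested, and all values below are mean KO minus mean WT junction reads. circSh3rf3 was -6.5 reads in the nucleus and 36.5 in total RNA. The other 10 were higher in KO nuclei and lower in KO total RNA. For circNcor1 the difference was 6.0 reads in the nucleus and -2.5 in total RNA. circTgfb3 differed by 4.0 nuclear and -4.0 total RNA reads. For circNbea the difference was 6.0 reads in the nucleus and -4.5 in total RNA. circNus1 differed by 3.5 nuclear and -7.0 total RNA reads. For circCol4a5 the difference was 3.5 reads in the nucleus and -3.5 in total RNA. circPik3c2a differed by 3.5 nuclear and -3.0 total RNA reads. For circAdgrl3 the difference was 4.0 reads in the nucleus and -9.5 in total RNA. circArfgap3 differed by 5.0 nuclear and -2.5 total RNA reads. For circNek1 the difference was 3.0 reads in the nucleus and -6.0 in total RNA. circF730043M19Rik differed by 2.5 nuclear and -6.5 total RNA reads. The nuclear values are unscaled, and the KO nuclear libraries held more exonic junction reads than the WT ones.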

How the results depend on the processing

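In the nucleus 10 ecircRNAs passed the test. The count was 7 to 10 with other scaling factors, without the filter on low counts and with a replicate block, 0 without scaling and 0 with DESeq2. Leaving out 1 library gave 1 to 4 calls, with fewer circRNAs past the filter (198 to 429 of the 651). Over all circRNAs (651, or 1166 without the filter) the calls numbered 66, of which 11 were higher in KO, against 44 with DESeq2 size factors, 38 with library totals, 55 with scaling factors from exonic circRNAs alone (2 higher), 40 without the filter, and 0 both without scaling and with DESeq2. In total RNA the count of ecircRNAs was 0, against 10 with DESeq2 size factors, 11 with library totals, 11 with a replicate block, 1 with DESeq2 and 3 with library sizes before the filter. Over all 8903 circRNAs the calls were 0, against 1832, 2003, 2054, 8 and 280 in that order. With 1 library left out, the median log2 difference in total RNA was -0.217 to 0.003 over the 35 to 44 ecircRNAs tested. Over all circRNAs tested it was -0.185 to 0.185. The cause of these differences was not tested. The host gene count of 110 lay between 91 and 114 in all alternatives run, and its replicate block gave 112.

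The KO minus WT difference of the nuclear reads (418) was 410 to 427 when 1 library was left out, and that of the nuclear share (3.7 percentage points) was 2.72 to 4.68. In total RNA the reads differed by -2.5 to -26.5 and the share by -0.0611 to 0.0566 percentage points, with the sign reversed without WT library 2 (0.016) and without KO library 1 (0.0566). Requiring 2 nuclear reads could not change the selection, since the lowest sum was 3 reads. Requiring both exon edges in 1 gene also kept all 205. Of the 10 ecircRNAs called in the nucleus, the 5 with smallest p in total RNA and the 9 hosts with a printed fold change, only Blvrb mRNA, at 0.003 and not called, changed direction: it was -0.0 with a replicate block, -0.009 without KO replicate 1, -0.042 without KO replicate 2 and -0.029 without WT replicate 1 (-0.042 to 0.078 when 1 library was left out).

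Same-numbered libraries share only a number: their deviations correlated at 0.0237 in the nucleus, 0.0295 in total RNA and between -0.0887 and 0.0613 in mRNA-seq. At a median of 1 read per WT nuclear library, the low counts limit what can be shown for a single circle.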
